A study of Mus musculus with 8 samples.

Results

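The 42 genes described here encode the carriers, enzymes and regulators with which liver cells take up, activate and oxidise fatty acids and make ketone bodies. The list of genes was drawn up with earlier results of these data known. Probes were then found by name: every probe carrying one of the 42 names in the scanner files was taken. Each gene was represented by its brightest probe over the 4 groups. All 42 were on the array, among 27745 gene names, with 60 probes between them. All 42 were also well above background on each of the 8 arrays, and they are part of the 17108 genes that were tested. Of the 42 genes, 29 had 1 probe and 13 had several.

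Liver RNA was hybridised to one-colour arrays, 2 per group, from KKAy mice at 11 weeks, C57BL/6J mice at 11 weeks, KKAy mice at 4 weeks and C57BL/6J mice at 4 weeks. KKAy mice become obese and diabetic. They have the yellow agouti allele on the KK background, so they differ from C57BL/6J, a standard inbred strain, at many other loci too. The labels give the disease state as diabetes for KKAy and as normal for C57BL/6J, at both ages. All groups had eaten chow and been fasted for 13.5 hours, so each comparison is between fasted livers. The sex of the mice, and whether the 2 arrays of a group came from separate animals, are not given in the sources used here. A p-value therefore reflects how far these samples spread, and that spread may be technical. Livers of 11-week mice were on slide 2 and those of 4-week mice on slide 1. On each slide KKAy took positions 3 and 4, and positions 1 and 2 went to C57BL/6J. Age and slide, and strain and position, cannot be told apart.

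In fasting, fatty acids released from fat tissue enter hepatocytes, are coupled to coenzyme A and pass into mitochondria as carnitine esters. Beta-oxidation then shortens them to acetyl-CoA, most of which leaves the liver as ketone bodies. Peroxisomes shorten very long, branched and dicarboxylic chains, and microsomal cytochrome P450 enzymes of the Cyp4a family start omega-oxidation, which makes dicarboxylic acids. PPAR alpha, a nuclear receptor that binds fatty acids, raises transcription of genes in all of these steps and pairs with RXR on DNA elements of 2 hexamers 1 base apart.

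That element was looked for in the promoters, because many of the members are known PPAR alpha targets. RefSeq windows of 300 bases (250 before to 50 after the start, GRCm38.p6) were at hand for 33 of the 42 members. The 9 without a window, which were not searched, were Slc27a5, Cpt1b, Crat, Acaa2, Decr1, Hsd17b4, Cyp4a10, Cyp4a14 and Vnn1. Of these, Slc27a5, Cpt1b, Crat, Cyp4a10, Cyp4a14 and Vnn1 were called lower in 11-week KKAy livers. The motif AGGTCANAGGTCA was searched on both strands, with up to 2 mismatches among its 12 fixed letters; its hexamers were not also searched alone. Windows of 4 of the 33 members (12.1%) held such a match, as did those of 4.40% of the 27025 genes in the table. Fabp1, the liver fatty acid binding protein gene, had the closest match, AGGCCATAGGTCA with 1 mismatch (T4C, counted from the motif's first base), a closeness found in 0.644% of all genes. Etfa, an electron transfer flavoprotein gene, had AGGGCAAAGGTAA, and 13 bases each in Acox2 (AGGACAGAGGTGA) and Slc25a20 (AGGTGAAAGGTCG) lay just after the start. The 250 bases before the start are printed below for Fabp1 and Etfa, where capitals mark the match, which lies on the opposite strand in both. They are also printed for Cpt1a and Ehhadh, both lower in 11-week KKAy livers, where capitals mark the stretch closest to the motif, with 4 mismatches. A match is a description of letters, and a missing match says only that the letters are not in this window.
Fabp1, chr6:71199629-71199878, plus strand: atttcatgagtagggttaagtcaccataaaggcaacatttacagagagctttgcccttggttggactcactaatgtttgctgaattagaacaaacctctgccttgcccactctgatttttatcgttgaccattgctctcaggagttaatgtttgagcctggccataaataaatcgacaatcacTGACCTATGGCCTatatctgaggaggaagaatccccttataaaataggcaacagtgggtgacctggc
Etfa, chr9:55512244-55512493, minus strand: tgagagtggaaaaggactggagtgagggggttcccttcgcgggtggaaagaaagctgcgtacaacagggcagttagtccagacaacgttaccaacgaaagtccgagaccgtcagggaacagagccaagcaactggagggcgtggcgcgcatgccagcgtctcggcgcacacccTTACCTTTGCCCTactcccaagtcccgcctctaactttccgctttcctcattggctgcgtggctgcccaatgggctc
Cpt1a, chr19:3323051-3323300, plus strand: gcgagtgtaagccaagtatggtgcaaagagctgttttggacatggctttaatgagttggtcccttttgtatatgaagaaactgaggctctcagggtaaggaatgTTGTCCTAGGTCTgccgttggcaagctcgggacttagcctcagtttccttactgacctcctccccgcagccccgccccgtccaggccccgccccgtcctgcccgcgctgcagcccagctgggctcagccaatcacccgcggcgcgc
Ehhadh, chr16:21787835-21788084, minus strand: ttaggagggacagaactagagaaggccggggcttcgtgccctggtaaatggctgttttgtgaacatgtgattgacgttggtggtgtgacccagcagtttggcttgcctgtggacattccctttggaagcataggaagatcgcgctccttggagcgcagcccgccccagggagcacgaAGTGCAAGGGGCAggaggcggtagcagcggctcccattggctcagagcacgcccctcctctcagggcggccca

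Between the strains, more members passed the test at 11 weeks than at 4 weeks, as did more of all genes (21.5% against 15.4%). These counts do not compare the ages, and the interaction of strain and age, given below, passed for 4 members. In 11-week KKAy livers 11 of the 42 members fell relative to C57BL/6J and 0 rose (adjusted p under 0.05, limma, Benjamini-Hochberg over all genes tested). That is 26.2% of the members lower, against 11.6% of all genes lower, 9.94% higher and 21.5% called in either direction. The 0 depends on the probe that stands for a gene: with the mean over a gene's probes 2 members rose and 12 fell, those gained being Slc27a2 (0.44, adjusted p = 0.0401) and Bdh1 (0.88, adjusted p = 0.00906), which rose, and Acsl1 (-0.39, adjusted p = 0.0444), which fell. The members that fell belong to several steps: acyl transfer at the outer mitochondrial membrane (Cpt1a, Cpt1b), acetyl transfer (Crat), the peroxisome (Ehhadh, Decr2), microsomal omega-oxidation (Cyp4a10, Cyp4a14), mitochondrial oxidation (Acadl, Hadhb), activation (Slc27a5) and the PPAR alpha target Vnn1. By step, 3 of 6 carnitine shuttle genes, 2 of 14 mitochondrial genes, 2 of 8 peroxisomal genes, 2 of 2 microsomal genes and 1 of 8 uptake and activation genes fell. The median log2 difference (KKAy minus C57BL/6J) over all members was -0.18, with 28 of 42 below 0, and over all genes it was 0.00. These are array levels of bulk liver, in which fewer cells of a type and less RNA per cell cannot be told apart. The count depended on single arrays: without C57BL/6J 11-week array 1 only Cpt1b, Ehhadh and Vnn1 still passed, 3 members in all, without its array 2 these and Cpt1a, 4 in all, and without KKAy 11-week array 2 there were 6.

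**Figure D1:**
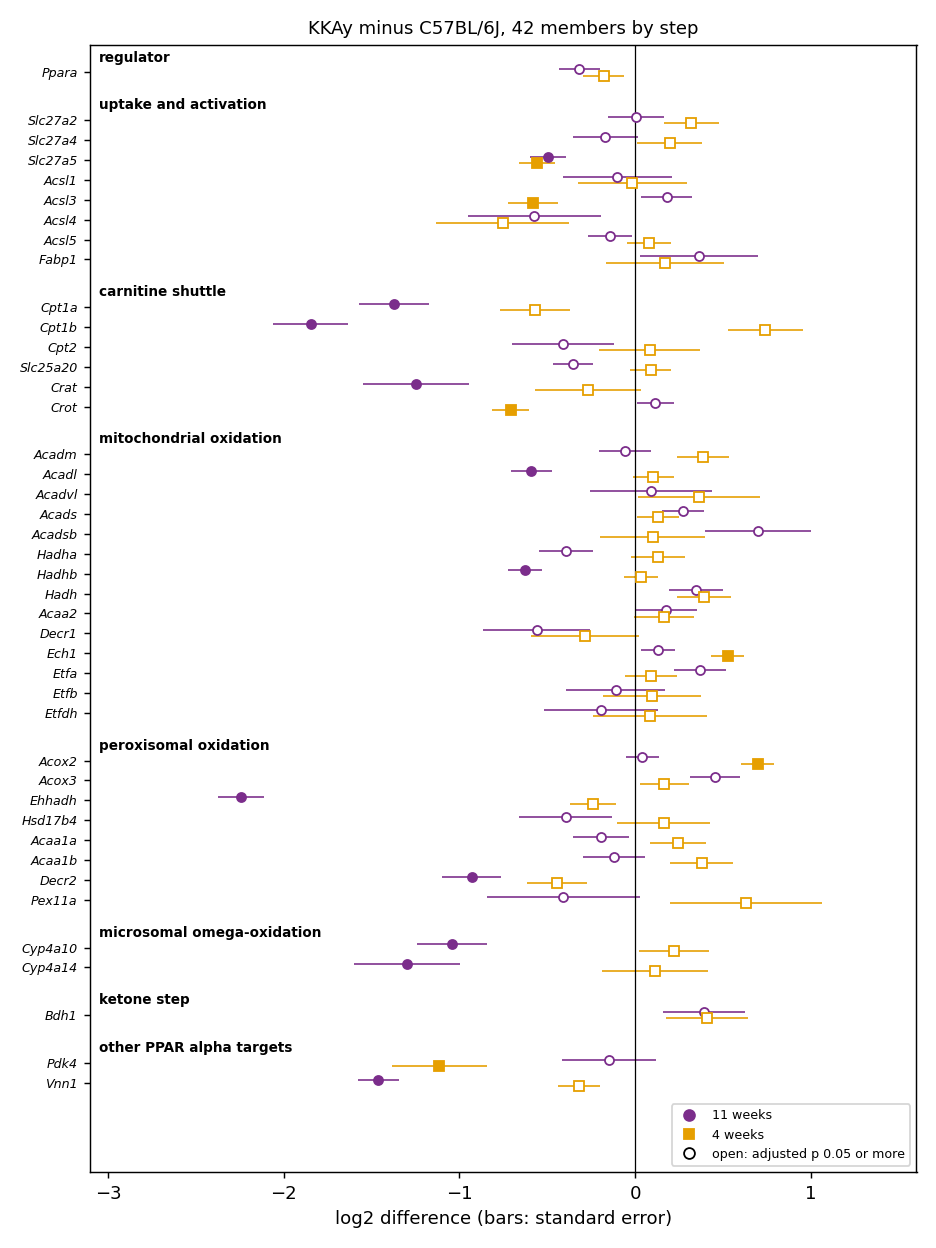
Log2 difference, KKAy minus C57BL/6J, for the 42 members grouped by step. Circles are 11 weeks and squares 4 weeks, bars are standard errors, and filled marks have an adjusted p under 0.05. All 11 filled circles lie left of 0, and filled squares lie on both sides, with 2 right of 0 and 4 left.

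Ppara, the receptor gene itself, did not pass the test in any comparison of the main fit. Alternatives in which it passed are given with the age differences below. Its values were 3.86 and 3.85 in 11-week KKAy livers, against 4.22 and 4.13 in 11-week C57BL/6J livers, given here and below as log2 signal relative to the 75th percentile of the array. The KKAy pair lay below the C57BL/6J pair, with a log2 difference of -0.32 (SE 0.11, adjusted p = 0.11), whose 95% interval ran from -0.60 to -0.04.

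Among the genes of uptake and activation, 1 of 8 fell at 11 weeks. Slc27a5, a bile acid-CoA ligase and fatty acid transporter of the liver, read 7.15 and 7.03 in 11-week KKAy livers, against 7.60 and 7.57 in 11-week C57BL/6J livers. At 4 weeks it read 6.96 and 6.89 in KKAy and 7.44 and 7.54 in C57BL/6J. The KKAy pair was lower at both ages and the pairs did not overlap. The log2 difference was -0.50 at 11 weeks (SE 0.10, adjusted p = 0.0214) and -0.56 at 4 weeks (SE 0.10, adjusted p = 0.0177), the only member called between strains at both ages. Resting on 1 probe, the call was lost at both ages with quantile or spike-in scaling and without a filter on dim probes. The same held with only the 4 arrays of a comparison in the fit. The other genes of the step, the transporters Slc27a2 and Slc27a4, the long-chain acyl-CoA synthetases Acsl1, Acsl3, Acsl4 and Acsl5, and Fabp1, did not pass at 11 weeks. Their differences ran from -0.58 for Acsl4 to 0.36 for Fabp1.

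Probes of the same gene disagreed for Slc27a2 and Acsl1. For Slc27a2 the second probe had a log2 difference of 0.59 at 4 weeks (adjusted p = 0.0308 in a fit over probes) and 0.22 at 11 weeks, where the brightest had 0.32 and 0.00. One more Slc27a2 probe, well above background on 5 of 8 arrays, read -4.30 and -4.43 in 11-week KKAy livers, against -5.50 and -5.44 in 11-week C57BL/6J livers (adjusted p = 0.0187). The other Acsl1 probes had -0.59 and -0.50 at 11 weeks, where the brightest had -0.10, and none of the 3 was called.

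The carnitine shuttle held some of the larger differences. Cpt1a, the liver form of carnitine palmitoyltransferase 1 and the main control point of entry into mitochondria, read 5.10 and 4.68 in 11-week KKAy livers, against 6.36 and 6.16 in 11-week C57BL/6J livers. At 4 weeks the values were 6.01 and 5.72 in KKAy and 6.57 and 6.30 in C57BL/6J. The 11-week KKAy arrays were the lowest of the 8. Cpt1a was 2.59-fold lower in KKAy at 11 weeks (log2 difference -1.37, SE 0.20, adjusted p = 0.00605), and its second probe had -1.28 (adjusted p = 0.00791). At 4 weeks its difference was -0.57 (adjusted p = 0.127). The probe lies on chromosome 19 at 3385374 to 3385433 (mm8; which exon or UTR it covers was not analysed here).

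Cpt1b, the form known from muscle, read -1.74 and -1.30 in 11-week KKAy livers, against 0.24 and 0.41 in 11-week C57BL/6J livers. In 4-week livers it read 0.36 and 0.69 in KKAy and -0.37 and -0.06 in C57BL/6J. KKAy was thus the lower strain at 11 weeks and the higher at 4 weeks, without overlap at either age. The fall at 11 weeks was 3.60-fold (log2 difference -1.85, SE 0.21, adjusted p = 0.00266), and the 4-week difference of 0.74 did not pass (adjusted p = 0.074). A second Cpt1b probe gave -2.41 at 11 weeks (adjusted p = 0.00107); the brightest lies on chromosome 15 at 89244225 to 89244284 (mm8). Of 6 skeletal muscle markers, 4 (Ckm, Tnnt3, Mb and Myl1) were not well above background on any array. Myh4 was well above background only in 11-week C57BL/6J livers and was at least 1.02-fold lower in 11-week KKAy livers (adjusted p = 0.00214). The summed signal of the 6 markers ran from 0.0578 to 0.0853 of the 75th percentile in 11-week KKAy livers and from 0.0808 to 0.0905 in 11-week C57BL/6J livers, and its part in the Cpt1b result was not tested.

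Crat, carnitine acetyltransferase, read 4.03 and 3.40 in 11-week KKAy livers, against 5.15 and 4.77 in 11-week C57BL/6J livers. The pairs did not overlap. The log2 difference was -1.25 (SE 0.30, adjusted p = 0.0341). Cpt2, which rebuilds the acyl-CoA inside the mitochondrion, had -0.41 (adjusted p = 0.387), and Slc25a20, the carnitine-acylcarnitine carrier, had -0.35 (adjusted p = 0.0839). Crot, the peroxisomal carnitine octanoyltransferase, had 0.11 (adjusted p = 0.521).

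Of the 14 genes of mitochondrial beta-oxidation, 2 fell at 11 weeks. Acadl, long-chain acyl-CoA dehydrogenase, read 3.90 and 3.71 in 11-week KKAy livers, against 4.43 and 4.37 in 11-week C57BL/6J livers, a log2 difference of -0.59 (SE 0.12, adjusted p = 0.0177). Hadhb, the thiolase subunit of the mitochondrial trifunctional protein, read 5.66 and 5.58 in KKAy and 6.27 and 6.23 in C57BL/6J, a difference of -0.63 (SE 0.10, adjusted p = 0.0076). For both genes the 11-week KKAy arrays were the lowest of the 8. Hadha, the other subunit, read 2.47 and 2.16 in KKAy and 2.82 and 2.59 in C57BL/6J, with a difference of -0.39 that did not pass (adjusted p = 0.134).

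Hadha and Hadhb are divergent neighbours on chromosome 5, with 272 bases between their RefSeq starts. The 250 bases before the Hadhb start are printed below, because the 2 subunits share this promoter region; capitals mark the 228 bases that lie within 250 bases of both starts.
Hadhb, chr5:30155003-30155252, plus strand: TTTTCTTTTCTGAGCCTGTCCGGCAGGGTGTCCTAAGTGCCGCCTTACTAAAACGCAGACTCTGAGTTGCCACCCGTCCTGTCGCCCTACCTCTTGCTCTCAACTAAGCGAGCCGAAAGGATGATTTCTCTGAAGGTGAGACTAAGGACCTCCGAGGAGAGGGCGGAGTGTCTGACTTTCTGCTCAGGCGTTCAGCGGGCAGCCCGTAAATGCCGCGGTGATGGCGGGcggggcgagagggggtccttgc

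The remaining 12 mitochondrial genes did not pass at 11 weeks. They include the acyl-CoA dehydrogenases for medium, very long, short and short branched chains (Acadm, Acadvl, Acads, Acadsb), Hadh and Acaa2 of the later steps, Decr1 and Ech1, which handle double bonds, and the electron transfer genes Etfa, Etfb and Etfdh. Over all 14 the median log2 difference was 0.02, with 7 above and 7 below 0, and the range was -0.63 to 0.70. The upper end was Acadsb, at 3.56 and 2.95 in 11-week KKAy livers and 2.72 and 2.38 in 11-week C57BL/6J livers (adjusted p = 0.165). Its KKAy arrays lay above its C57BL/6J arrays, but differed between themselves by almost as much.

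In the peroxisome, Ehhadh stood at the lower end of all 42 members. Ehhadh, the bifunctional enzyme of the peroxisomal pathway that also acts on dicarboxylic acids, read 6.19 and 6.01 in 11-week KKAy livers, against 8.36 and 8.33 in 11-week C57BL/6J livers. At 4 weeks it read 7.71 and 7.73 in KKAy and 7.82 and 8.10 in C57BL/6J. Only the 11-week KKAy arrays were far from the rest. It was 4.74-fold lower in KKAy at 11 weeks (log2 difference -2.24, SE 0.13, adjusted p = 0.000291), and its 4-week difference was -0.24 (adjusted p = 0.322). The probe lies on chromosome 16 at 21675824 to 21675883 (mm8).

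Decr2, the peroxisomal 2,4-dienoyl-CoA reductase, read 4.06 and 3.75 in 11-week KKAy livers, against 4.94 and 4.72 in 11-week C57BL/6J livers (log2 difference -0.93, SE 0.17, adjusted p = 0.0131). The other 6 peroxisomal genes did not pass at 11 weeks. Acox2, the oxidase of branched chains and bile acid intermediates, read 5.43 and 5.34 in KKAy and 5.35 and 5.35 in C57BL/6J. Acox3, another oxidase of branched chains, read 1.43 and 1.65 in KKAy and 1.02 and 1.14 in C57BL/6J. The Acox2 pairs overlapped, and for Acox3 KKAy lay above (0.46, adjusted p = 0.073).

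Hsd17b4, the second bifunctional enzyme, read 6.87 and 7.39 in 11-week KKAy livers and 7.38 and 7.67 in 11-week C57BL/6J livers. The thiolases Acaa1a (7.41 and 7.62 in KKAy, 7.69 and 7.73 in C57BL/6J) and Acaa1b (7.58 and 7.78 in KKAy, 7.74 and 7.86 in C57BL/6J) are close paralogs, so a probe may read both. Pex11a, which takes part in peroxisome division, read 5.86 and 6.77 in KKAy and 6.47 and 6.97 in C57BL/6J. The strains overlapped for Hsd17b4, Acaa1b and Pex11a, and the differences of these 4 genes ran from -0.41 to -0.12 with none called. The median over the 8 peroxisomal genes was -0.29.

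Both microsomal genes fell at 11 weeks. Cyp4a10 read 7.15 and 6.58 in 11-week KKAy livers, against 8.01 and 7.81 in 11-week C57BL/6J livers. Cyp4a14 read 7.55 and 7.89 in KKAy and 8.90 and 9.14 in C57BL/6J. For both fatty acid omega-hydroxylases the pairs were well apart at 11 weeks. Cyp4a10 was 2.06-fold lower (log2 difference -1.04, SE 0.20, adjusted p = 0.0157) and Cyp4a14 2.46-fold lower (-1.30, SE 0.30, adjusted p = 0.0302). The other Cyp4a10 probes gave -1.06 and -1.35, both called. The 2 genes are neighbours on chromosome 4, the Cyp4a10 probe at 115030595 to 115031083 and the Cyp4a14 probe at 114984241 to 114984300 (mm8), and they belong to a family of similar genes, so the probes may not read 1 gene alone. At 4 weeks neither passed: Cyp4a10 read 7.93 and 7.87 in KKAy and 7.64 and 7.72 in C57BL/6J, and Cyp4a14 read 8.45 and 8.98 in KKAy and 8.24 and 8.96 in C57BL/6J.

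**Figure D2:**
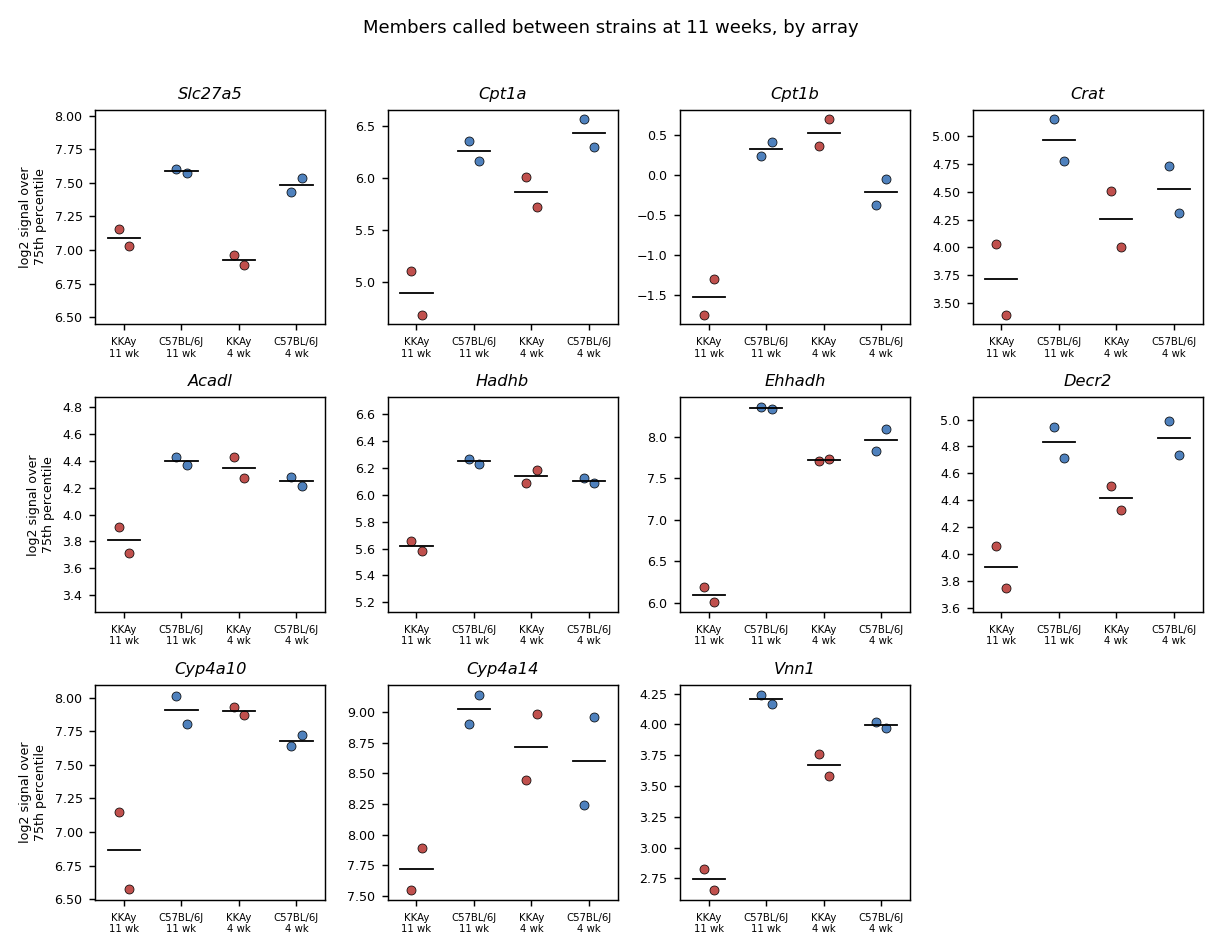
Values by array, as log2 signal over the 75th percentile of the array, for the 11 members that differed between strains at 11 weeks. Points are arrays, 2 per group, and lines are group means; in each panel the 11-week KKAy arrays lie below the 11-week C57BL/6J arrays.

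The ketone step was represented by 1 member, Bdh1, the mitochondrial 3-hydroxybutyrate dehydrogenase that forms beta-hydroxybutyrate; other ketone body genes enter here only through the counts of the wider list at the end. Its brightest probe read 6.25 and 6.66 in 11-week KKAy livers, against 5.90 and 6.22 in 11-week C57BL/6J livers, and 6.65 and 7.01 in 4-week KKAy livers, against 6.23 and 6.61 in 4-week C57BL/6J livers. KKAy lay higher at both ages, by 0.39 (SE 0.23, adjusted p = 0.303) at 11 weeks and 0.41 (SE 0.23, adjusted p = 0.349) at 4 weeks, and neither passed. The second Bdh1 probe, dimmer but well above background on all 8 arrays, read 3.03 and 3.06 in 11-week KKAy livers, against 1.69 and 1.66 in 11-week C57BL/6J livers. At 4 weeks it read 3.85 and 3.92 in KKAy and 2.17 and 2.27 in C57BL/6J. On that probe KKAy was higher by 1.37 at 11 weeks (adjusted p = 0.000563) and by 1.67 at 4 weeks (adjusted p = 0.000448). Both probes lie within 1 kilobase on chromosome 16, the brightest at 31377039 to 31377098 and the second at 31377856 to 31377915 (mm8). Both had higher values in KKAy, by different amounts.

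Vnn1, the pantetheinase gene and a known PPAR alpha target, read 2.83 and 2.65 in 11-week KKAy livers, against 4.24 and 4.17 in 11-week C57BL/6J livers. At 4 weeks it read 3.76 and 3.58 in KKAy and 4.02 and 3.97 in C57BL/6J. KKAy was lower at both ages, and the gap passed the test at 11 weeks (log2 difference -1.46, SE 0.12, adjusted p = 0.000785), where the fall was 2.75-fold. Its probe lies on chromosome 10 at 23594134 to 23594193 (mm8). Pdk4, the kinase that switches off pyruvate dehydrogenase in fasting, read 1.27 and 1.83 in 11-week KKAy livers and 1.52 and 1.87 in 11-week C57BL/6J livers, overlapping values.

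Other cell and tissue markers moved between the strains as well. At 11 weeks 3 of 5 hepatocyte markers (Apoa1, Cps1 and Tat, by -1.03, -0.91 and -0.87) fell in KKAy, Ttr rose by 0.53, and Hnf4a had 0.02; all 5 were well above background on all 8 arrays. Summed hepatocyte signal was 472 to 479.9 times the 75th percentile in 11-week KKAy livers and 863 to 878 times in 11-week C57BL/6J livers. Of 7 Kupffer cell and macrophage markers 5 fell at 11 weeks, and their sum was 19.6 to 19.9 in KKAy and 34.9 to 38.4 in C57BL/6J. The adipocyte marker list, in which Lep and Ucp1 were not well above background on any array, summed to 1.51 to 2.14 in KKAy and to no more than 1.20 in C57BL/6J, but of the 3 tested only Cidea rose, by 3.92, while Adipoq had -1.04 (adjusted p = 0.0531) and Cfd -0.55 (adjusted p = 0.105). Of 6 stellate cell markers 3 fell (Col1a1, Reln and Dcn) and Col3a1 rose, and of the lymphocyte markers Cd3g and Cd79b fell. Of 5 endothelial markers tested Cdh5 fell by 0.55 and Clec4g rose by 0.47, and of 4 bile duct markers tested Sox9 fell by 1.36. The part of these shifts in the falls above was not tested.

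At 4 weeks, 6 of 42 members differed between the strains, 2 higher and 4 lower in KKAy. This is 14.3% of the members, against 15.4% of all genes, a share near the background, with 6.37% of all genes higher and 9.01% lower. The median log2 difference was 0.10 over the members, with 29 of 42 above 0, and 0.01 over all genes. Scaled to the spike-in controls, which put the median of all genes at 0.36 where it was 0.01 with the 75th percentile, 7 members were higher and 0 lower at 4 weeks, and 75.6% of all calls were higher where 41.4% were before. With the mean over probes 4 members rose and 5 fell at 4 weeks. The count fell to 1 or 2 without any single 4-week array, and to 2 without either 11-week C57BL/6J array.

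Acox2 read 5.87 and 5.83 in 4-week KKAy livers, against 5.15 and 5.16 in 4-week C57BL/6J livers. Ech1, the isomerase for unsaturated chains, read 6.00 and 6.03 in KKAy and 5.44 and 5.55 in C57BL/6J. For both, the KKAy arrays at 4 weeks were the highest of the 8, and the rise was 0.70 for Acox2 (SE 0.09, adjusted p = 0.0057) and 0.52 for Ech1 (SE 0.10, adjusted p = 0.017). At the peroxisomal end of the shuttle, Crot read 6.21 and 6.15 in 4-week KKAy livers, against 6.80 and 6.97 in 4-week C57BL/6J livers, a log2 difference of -0.71 (SE 0.11, adjusted p = 0.00832). A second, dimmer Crot probe had -0.92 and was not called (adjusted p = 0.179 in a fit over probes). Acsl3, an acyl-CoA synthetase, read -0.59 and -0.73 in KKAy and 0.03 and -0.19 in C57BL/6J, a difference of -0.58 (adjusted p = 0.0453). For Crot and Acsl3 the 4-week KKAy arrays were the lowest of the 8.

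Pdk4 read 1.31 and 1.72 in 4-week KKAy livers, against 2.44 and 2.82 in 4-week C57BL/6J livers. It was 2.16-fold lower in KKAy (log2 difference -1.11, SE 0.27, adjusted p = 0.0428), and the 4-week C57BL/6J arrays were the highest of the 8. The remaining peroxisomal genes did not pass at 4 weeks: Acox3 read 1.15 and 1.37 in KKAy and 1.01 and 1.19 in C57BL/6J, and Decr2 read 4.50 and 4.33 in KKAy and 4.99 and 4.73 in C57BL/6J. Hsd17b4, Acaa1a, Acaa1b and Pex11a had differences of 0.16, 0.25, 0.38 and 0.63. All 7 Kupffer cell and macrophage markers fell in KKAy at this age, with a sum of 32.6 to 35.8 in KKAy and 79.1 to 97.3 in C57BL/6J. Of the 6 lymphocyte markers 4 fell, of the 6 stellate markers Col1a1 and Col3a1 fell, Sox9, Cdh5, Tat and Cfd fell, and Clec4g and Adipoq rose. Their part in these results was not tested.

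**Figure D3:**
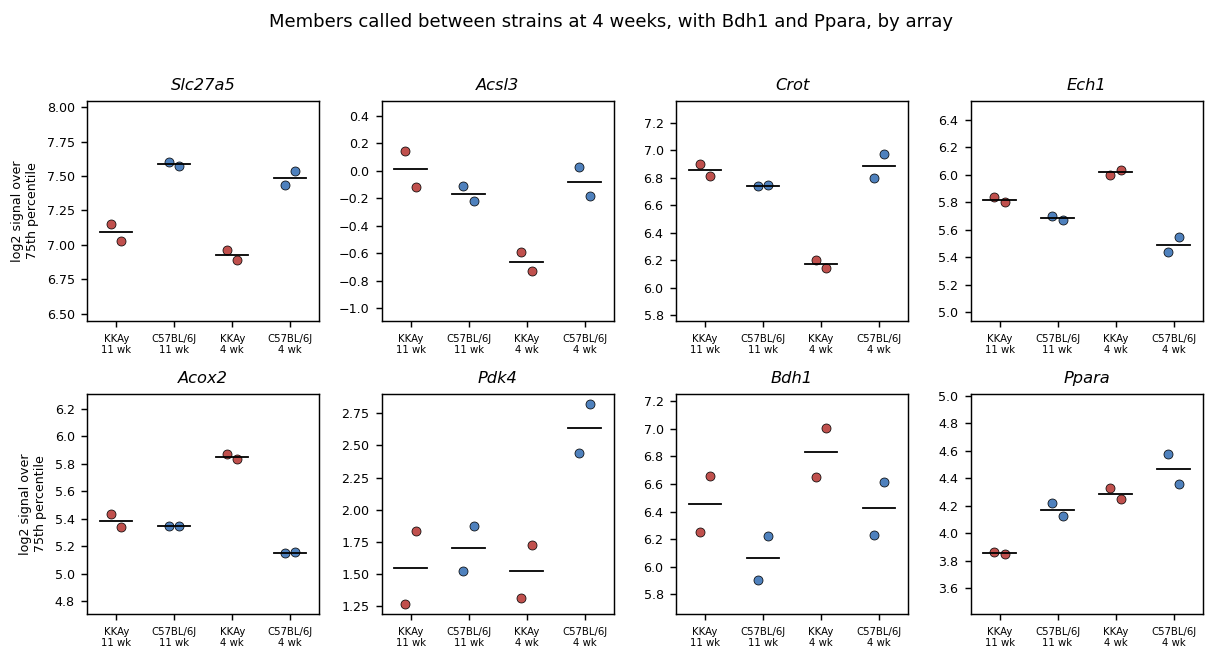
Values by array, as log2 signal over the 75th percentile of the array, for the 6 members that differed between strains at 4 weeks, with Bdh1 (brightest probe) and Ppara beside them. Points are arrays and lines are group means; Acox2 and Ech1 are highest, and Crot and Acsl3 lowest, in 4-week KKAy livers.

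With age, 10 of 42 members passed the test in KKAy livers and 0 in C57BL/6J livers. These counts do not compare the strains, and the interaction given below passed for 4 members. Both counts also depended on the processing, as given in the last section. Between 11 and 4 weeks in KKAy, 2 members rose and 8 fell, 23.8% of the 42, against 18.6% of all genes, of which 7.91% rose and 10.7% fell. Those that fell were Cpt1a (-0.97), Cpt1b (-2.05), Acadl (-0.54), Hadhb (-0.52), Acox2 (-0.46), Ehhadh (-1.62), Cyp4a10 (-1.04) and Vnn1 (-0.93). The 11-week KKAy arrays are shared with the strain comparison at that age. Acsl3 (0.67) and Crot (0.68) rose. The second Crot probe had 0.62 and was not called (adjusted p = 0.312 in a fit over probes), and the mean over probes lost the Crot call. Leaving out either 4-week KKAy array left 3 calls, either 11-week C57BL/6J array or 11-week KKAy array 1 left 5, and 11-week KKAy array 2 left 6; with spike-in scaling 0 rose and 9 fell, and 19.4% of all calls were rises where 42.5% were before.

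In C57BL/6J livers 0 of 42 members passed between 11 and 4 weeks (limma), against 8.36% of all genes (1.9% higher and 6.46% lower). At an unadjusted p under 0.05 there were 4, 2 in each direction, and with the mean over probes in place of the brightest probe 1 member passed. The median log2 difference over the members was 0.20 in C57BL/6J, with 31 of 42 above 0, and -0.11 in KKAy, with 28 of 42 below 0. Over all genes it was 0.05 in C57BL/6J, with 42.5% below 0, and 0.02 in KKAy, with 47.9% below 0. Pdk4 had the lowest value in C57BL/6J, -0.93 (adjusted p = 0.106), and Pex11a the highest, 0.80 (adjusted p = 0.389). Ppara had -0.43 in KKAy (adjusted p = 0.0505) and -0.30 in C57BL/6J (adjusted p = 0.219). Its KKAy difference passed with the mean over probes and with only probes well above background on all 8 arrays. With the replicate number as a block, Ppara passed with age in both strains and between the strains at 11 weeks.

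Markers of other cells also moved with age, in both strains. In KKAy 3 of 7 Kupffer cell and macrophage markers fell between 11 and 4 weeks, Marco by 4.89, as did 5 of 6 stellate markers, Col1a1 (-2.36) and Col3a1 (-2.03) among them, 3 of 6 lymphocyte markers and 2 of 5 endothelial markers. Among hepatocyte markers Apoa1 fell by 0.76 and Ttr rose by 0.88, and among adipocyte markers Cidea rose by 3.45 and Cfd, not well above background in 4-week KKAy livers, was at least 24.1-fold higher at 11 weeks. In C57BL/6J 6 of 7 Kupffer cell and macrophage markers, 3 of 6 lymphocyte markers, 2 of 6 stellate markers and Cdh5 fell, Cfd rose by 5.09 and Adipoq by 2.63, Sox9 and Myh4 also rose, and the 5 hepatocyte markers had differences of 0.06 to 0.42 that did not pass. The part of these shifts in the members' differences was not tested.

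**Figure D4:**
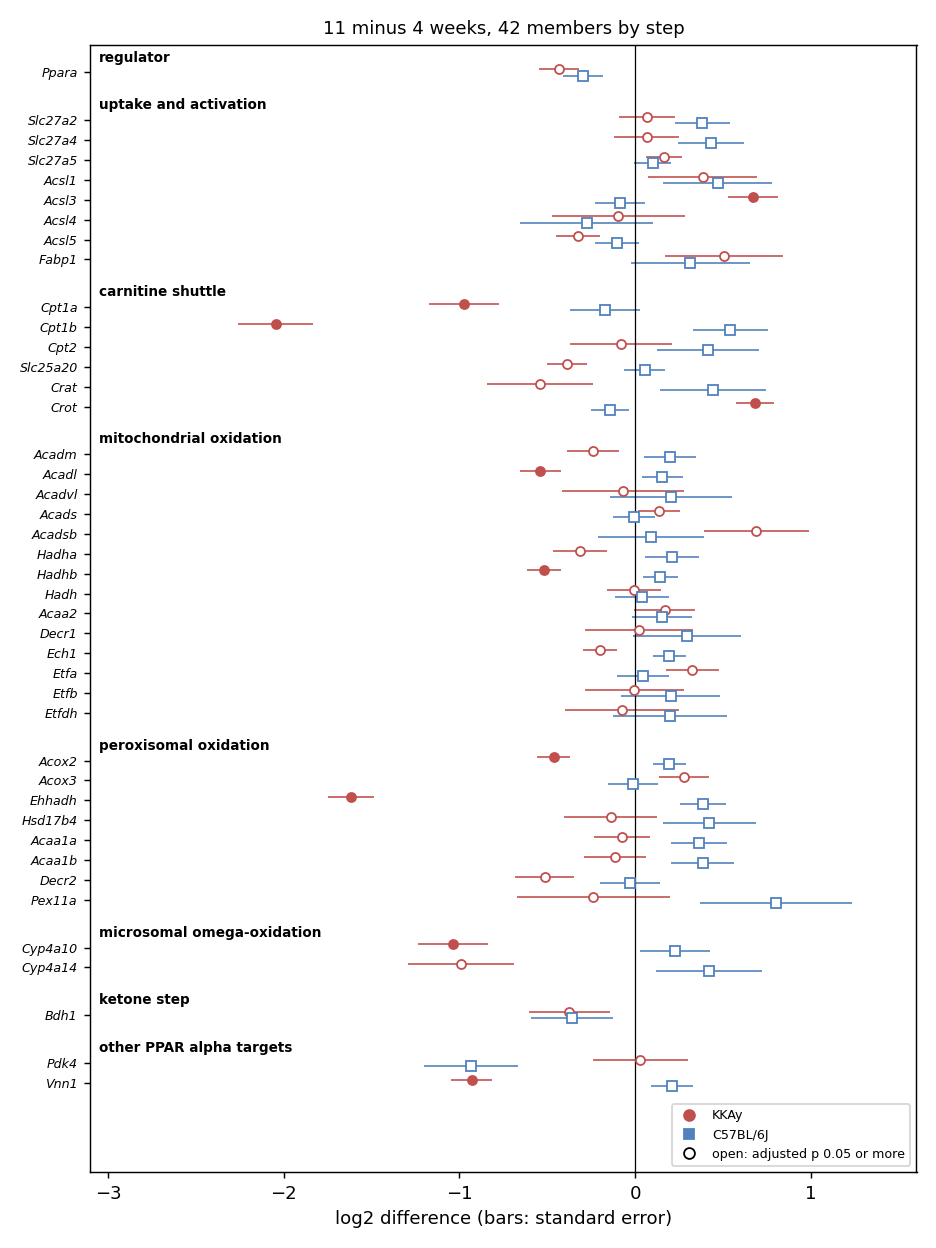
Log2 difference, 11 minus 4 weeks, for the 42 members grouped by step. Circles are KKAy and squares C57BL/6J, bars are standard errors, and filled marks have an adjusted p under 0.05. The 8 filled circles left of 0 include Cpt1b, Ehhadh and Cyp4a10, the 2 right of 0 are Acsl3 and Crot, and no square is filled.

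Whether the strain difference itself changed with age was tested as an interaction, the 11-week difference minus the 4-week difference. It passed for 4 of 42 members, 1 higher and 3 lower, 9.52% of the members and 3.78% of all genes (2.05% higher and 1.72% lower). Cpt1b had -2.59 (SE 0.30, adjusted p = 0.013), Ehhadh had -2.00 (SE 0.19, adjusted p = 0.00703) and Vnn1 had -1.14 (SE 0.17, adjusted p = 0.0249). These 3 genes were lower in KKAy relative to C57BL/6J at 11 weeks than at 4 weeks. Crot went the other way with 0.82 (SE 0.15, adjusted p = 0.0457), with strain differences of 0.11 at 11 weeks and -0.71 at 4 weeks. Its second probe had 0.92 and was not called (adjusted p = 0.471 in a fit over probes). Cyp4a10 (-1.27, adjusted p = 0.0764), Acadl (-0.69, adjusted p = 0.0901), Hadhb (-0.66, adjusted p = 0.0651), Acox2 (-0.66, adjusted p = 0.0595), Cyp4a14 (-1.42, adjusted p = 0.155) and Cpt1a (-0.80, adjusted p = 0.212) did not pass in this fit. Of the cell and tissue markers, Marco (-3.11), Adipoq (-2.52), Mpeg1 (1.02), Col3a1 (1.01) and Cidea (3.25) passed as well, and their part was not tested. Across 17 alternatives of processing or arrays, the interaction call held in 15 for Ehhadh, 12 for Cpt1b, 7 for Vnn1 and 4 for Crot. Without either 11-week C57BL/6J array 0 members passed, and without 1 array of another group 1 to 3 did.

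Of 64 other genes of fatty acid handling listed beside the members, 57 were tested. In 11-week KKAy livers 4 rose and 10 fell, with a median log2 difference of -0.14, against 9.94% of all genes higher and 11.6% lower. Lpin1, a phosphatidate phosphatase that also acts as a coactivator with PPAR alpha, read -0.57 and -0.68 in KKAy and 4.18 and 4.19 in C57BL/6J, a difference of -4.81 (SE 0.10, adjusted p = 2.12e-05). Its values did not come near each other between the strains. Acot5, a peroxisomal acyl-CoA thioesterase gene, was not well above background in 11-week KKAy livers and was at least 8.59-fold lower there (adjusted p = 0.000147), and Abcd2, a peroxisomal half-transporter, likewise at least 2.18-fold lower (adjusted p = 0.00183). Cidec, a lipid droplet protein gene, read 2.23 and 2.62 in KKAy and 5.91 and 6.09 in C57BL/6J (-3.58, SE 0.21, adjusted p = 0.000278). Among those that rose, Cd36, a fatty acid uptake receptor, read 3.59 and 3.57 in KKAy and 1.80 and 1.80 in C57BL/6J (1.78, SE 0.09, adjusted p = 0.000203), and Nudt7, a peroxisomal coenzyme A diphosphatase, was higher by 1.65 (SE 0.16, adjusted p = 0.00147). All 6 were picked as the largest differences among those that passed.

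At 4 weeks 6 of the 57 rose and 5 fell, with a median of 0.09, against 6.37% of all genes higher and 9.01% lower. Lpin1 was already lower in KKAy, with a difference of -2.82 (SE 0.10, adjusted p = 0.00011). Ppargc1a, the PGC-1 alpha coactivator gene, read 0.22 and 0.68 in KKAy and 1.86 and 2.17 in C57BL/6J (-1.57, SE 0.31, adjusted p = 0.0229). Acad10, an acyl-CoA dehydrogenase gene, was higher in KKAy by 1.30 (SE 0.09, adjusted p = 0.000695) and Fgf21, a hormone made by the fasting liver, by 1.22 (SE 0.16, adjusted p = 0.00553). Acot8, another peroxisomal thioesterase gene, was higher by 0.77 (SE 0.18, adjusted p = 0.0365), and Aldh3a2, fatty aldehyde dehydrogenase, had a difference of -0.74 (SE 0.10, adjusted p = 0.0069).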

How the data were processed

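Mouse liver RNA was read on 8 one-colour arrays. Per the file headers, the authors' spot intensity came from Agilent Feature Extraction 9.5.1.1. That program takes off background and spatial trends and gives surrogates to the dimmest spots. The value table deposited by the authors holds log2 values, equal per array to the log2 processed signal minus 1 constant within rounding, and served as an alternative. It has 0 columns of no sample. Probe positions in the files are on mm8.

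Here, log2 processed signal was averaged over the spots of a probe (control spots and 59 to 89 spots per array with outlier flags left out) and taken relative to the 75th percentile of the array. This percentile was 476 to 1192 units. Between 56.3% and 66.7% of spots per array exceeded background clearly, and the number of arrays limits the precision. A probe was kept if some group had it well above background on its 2 arrays (25320 of 41174), and the brightest stood for its gene. All 8 arrays entered 1 fit of group means (limma 3.58.1 under R 4.3.3, with lmFit, eBayes, 4 residual and 1.927 prior degrees of freedom). Benjamini-Hochberg adjustment covered every gene tested, with a threshold of 0.05. Strains were compared at each age, ages in each strain, and both together as an interaction. Where no array of a group was well above background, a fold is a bound, the brighter group's mean against, per array of the dim group, the higher of its signal and the lowest signal well above background. The fit was run on simulated data with known differences, with errors drawn independently for each array. Real arrays of the same number deviated together, so the simulation does not give the error rate for these data. The members and lists were chosen with earlier results of these data known. Named are all members, with values by array for those called between strains or in the interaction and for the peroxisomal, microsomal and ketone genes; of the wider pathway list, the 6 largest differences called per strain contrast. Some list genes are counted but not reported by name here. Alternatives were normexp (offset 50), quantile and spike-in scaling, the deposited table, other probe filters, the mean over probes, updated names, the replicate number as a block, fewer arrays in the fit, and each array left out. Tables and figures used Python 3.11.15, pandas 2.3.3, numpy 2.4.6 and matplotlib 3.10.9.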

Additional observations from a re-analysis of the deposited data

Results flagged for a closer look

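Of all genes, 3.78% passed the test of the interaction (11-week minus 4-week difference, log2, limma), 2.05% upward and 1.72% downward. By that test the strain difference changed between the ages for 4 of 42 members. In the wider pathway list it changed for 2 genes upward and 6 downward of 57. Among the members these were Cpt1b (-2.59), Ehhadh (-2.00) and Vnn1 (-1.14), each with a strain difference that was more negative at 11 weeks than at 4 weeks, and Crot (0.82), which was lower in KKAy at 4 weeks and not at 11 weeks. Among the genes of the wider pathway list named for their strain differences they were Acot5 (-5.13), Cidec (-4.16), Lpin1 (-1.99), Nudt7 (1.78) and Cd36 (1.70). Acot2 (-1.83) and Acot1 (-1.46), also called, were chosen after their values were seen. The Acot5 value rests on a group not well above background, the 11-week KKAy livers. Among the members, the Crot call held in only 4 of 17 alternatives of processing or arrays, and the Vnn1 call in 7.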

How the results depend on the processing

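Counts of members called ran as follows. In the order KKAy minus C57BL/6J at 11 weeks, the same at 4 weeks, 11 minus 4 weeks in KKAy, the same in C57BL/6J, and the interaction, they were 11, 6, 10, 0 and 4. Without any filter on dim probes they were 7, 2, 3, 0 and 1, with more genes tested. With only the 4 arrays of a comparison in the fit they were 6, 0, 2 and 0. With the replicate block they rose to 26 (6 higher, 20 lower), 21 (11 and 10), 25 (7 and 18), 16 (13 and 3) and 26 (5 and 21), and Cpt1a, Acadl, Hadhb, Acox2, Cyp4a10 and Cyp4a14 then passed in the interaction. With the mean over probes they were 14 (2 higher, 12 lower), 9 (4 and 5), 11 (1 and 10), 1 (1 and 0) and 4 (0 and 4). Leaving out 1 array in turn gave 3 to 11, 1 to 6, 3 to 8, 0 to 0, and 0 to 3. The cause of these shifts was not tested. Same-numbered arrays deviated together (Pearson r = 0.53 to 0.67 across genes for 6 pairs of groups, genes not being independent), and for 33 of 42 members array 2 lay on the same side of array 1 in all 4 groups (19 higher, 14 lower). With 2 such pairs per comparison, and no label saying what a number marks, this is a hint from the data and not the design. Over all member differences and alternatives, 3457 kept their side of the threshold, 172 lost a call, 109 gained one and 0 changed direction with a call. Most of the 3457 were differences not called in the main fit. Only the 11, 6, 10, 0 and 4 called there could lose a call, so the 172 are to be read against those alone. Spike-in scaling put the all-gene median of the strain difference at 0.13 at 11 weeks, of the age difference in KKAy at -0.19 and of the interaction at -0.21. At 11 weeks 8 members were lower and 0 higher, and 60.5% of all calls were higher against 46.3%; Slc27a5, Acadl and Hadhb then lost their calls. In the interaction the share of higher calls was 36.1% with it and 54.3% without.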
